A study of Mus musculus with 12 samples.

Results

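Valproic acid (VPA) was set against the solvent control dimethyl sulphoxide (DMSO) in ISOS-1 cells, a line grown from a mouse angiosarcoma (a malignant tumour of vessel lining) and labelled as wild-type endothelial cells. The 6 libraries compared were the 3 of cells given VPA at 2 mM for 36 h and the 3 of cells given DMSO, for which the labels state no duration. All cells grew in DMEM with 10% serum. Of 12 libraries in the series, the other 6 held cells given the HDAC inhibitor SAHA (vorinostat) at 1 µM for 24 h or the BET inhibitor JQ1 at 1 µM for 36 h, 3 of each. Transcript 3′ ends were sequenced, and expression is given as TPM, a length-scaled share of each library that keeps no read depth, so the counting precision of a value is unknown. Genes were kept where at least 3 of the 12 libraries had 1 TPM or more, which left 12836 of 55359 identifiers. One cell line was used, and the labels do not say whether the 3 libraries of a group came from separate cultures. Where they did not, the p-values rest on technical spread alone.

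VPA is a short branched-chain fatty acid used against epilepsy that also inhibits zinc-dependent histone deacetylases (HDACs), mainly those of class I. Class I enzymes act in corepressor complexes such as NuRD, Sin3 and CoREST, which remove acetyl groups from histone tails at repressed genes. HDAC inhibitors are known to raise the CDK inhibitor gene Cdkn1a, the linker histone gene H1f0, metallothionein genes and genes that REST and CoREST keep silent outside neurons.

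VPA raised 379 genes (2.95% of the 12836 tested) and lowered 169 (1.32%), by limma on log2(TPM + 1) with a Benjamini-Hochberg adjusted p under 0.05. In all 548 of these calls (4.27% of genes), the 3 VPA libraries lay on 1 side of the 3 DMSO libraries. Over all tested genes, VPA was higher without overlap for 15.1% and lower without overlap for 8.44%. On the log2 scale the higher genes changed more than the lower ones. Their median log2 change was 0.83, and 141 of them were at least 2-fold higher, while the lower genes had a median of −0.48, with 35 at least 2-fold lower. The sets also differed in TPM, with a median DMSO mean of 18.1 TPM for higher and 131.7 TPM for lower genes. TPM divides by transcript length, which 3′ tags do not follow, so this difference between sets of genes is of TPM alone. Whether level had a part in the sizes of the changes was not tested. The median log2 change of all tested genes was 0.06. Leaving out any 1 of the 6 VPA and DMSO libraries left 209 to 232 higher and 73 to 102 lower genes, and 155 higher and 54 lower genes were called in each of the 12 fits that left out a library. With median-of-ratios scaling, 270 genes were higher and 299 lower, so that the share of higher calls fell to 47.5%, against 69.2% on deposited TPM. Fitted on the 6 libraries alone, 173 were higher and 70 lower. Each list count below is to be read beside the shares of all tested genes, 2.95% higher and 1.32% lower. A single call is not by itself a result about its list. Counts within the gene lists below moved too. Of 71 such counts of 1 or more, 45 moved by over 1.5 times in some fit that left out a library and 58 under another setting, and 50 held at least 1 gene called in all 12 fits that left out a library.

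**Figure D1:**
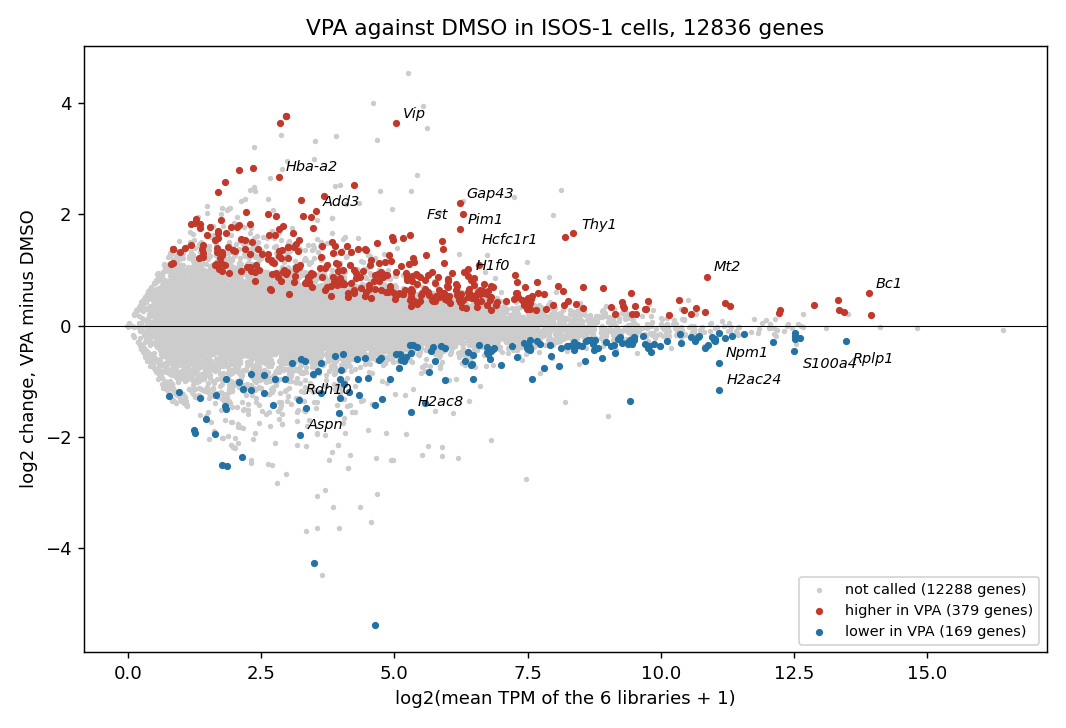
Each dot is 1 of 12836 tested genes, with the log2 of its mean TPM over the 3 VPA and 3 DMSO libraries (plus 1) on the x axis and its log2 change, VPA minus DMSO, on the y axis. Red dots are the 379 genes higher with VPA and blue dots the 169 lower, and Vip stands at the top of the named genes with a change of 3.63.

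VPA libraries listed 14049 to 14577 genes above 0 and DMSO libraries 13735 to 14382. Mitochondrially encoded genes held 12.2 ± 0.245% of the TPM with VPA and 11.1 ± 0.0889% with DMSO (SD, n = 3 each, as for every ± that follows), with every VPA library above every DMSO library. The median-of-ratios size factors lay apart as well, at 1.07 to 1.09 with VPA and 1.02 to 1.03 with DMSO. The ribosomal RNA gene Rn18s held 8.51 ± 0.598% with VPA and 8.98 ± 0.0299% with DMSO. Of 25 blood endothelial markers, 14 were listed at 0 in all 6 libraries, among them the VE-cadherin gene Cdh5, and 3 reached the filter. The listed values of Pecam1 (CD31) were 0, 0 and 0.34 TPM with VPA and 0, 0.35 and 0.25 TPM with DMSO. Cd34 was at 139 ± 18.2 TPM with VPA and 103 ± 8.41 TPM with DMSO; its adjusted p of 0.042 rose above the threshold in each fit that left out a library other than VPA replicate 3, and was 0.145 in the fit of the 6 libraries alone. Of the 2 lymphatic endothelial markers tested, podoplanin (Pdpn) rose, with 107, 105 and 105 TPM with VPA, against 69.1, 77.6 and 73.3 TPM with DMSO (log2 change 0.53, SE 0.08, adjusted p = 0.0042). Summed over each list, blood endothelial markers ran from 131 to 166 TPM with VPA and 107 to 124 TPM with DMSO, and fibroblast markers from 980.3 to 1049 TPM with VPA and 764 to 806 TPM with DMSO. Between group means, the difference in the blood endothelial sum was about that of Cd34 alone. The difference in the fibroblast sum was smaller than that of Thy1 alone. Of 7 fibroblast markers tested 1 rose (Thy1) and 1 fell (Col1a2), both described below. The list had a median log2 change of 1.00 with 5 of 7 changes positive, and 6 of 7 were at an unadjusted p under 0.05; 2 rose without VPA replicate 2 and in the fit of the 6 libraries alone. Of 14 leukocyte markers 8 were listed at 0 in all 6 libraries and neither of the 2 tested was called, and the list summed to 1.5 to 3.95 TPM with VPA and 0.52 to 3.87 TPM with DMSO. Of 10 epithelial markers 3 were listed at 0 in all 6 libraries, and the list summed to 25.3 to 35.8 TPM with VPA and 11.96 to 12.94 TPM with DMSO, of which the keratin gene Krt19, the 1 tested, had 31.03 ± 5.998 TPM with VPA and 11.3 ± 0.641 TPM with DMSO (log2 change 1.36, SE 0.16, adjusted p = 0.001). Whether a shift in the makeup of the culture had a part in the changes below was not tested, and in RNA from whole cultures a change in the share of cells of a type cannot be told apart from a change in RNA per cell.

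The largest rise among the genes named here was in Vip, which encodes vasoactive intestinal peptide, a neuropeptide that relaxes vessels. Vip had 51.03, 59.8 and 65.9 TPM with VPA, against 5.14, 1.99 and 5.04 TPM with DMSO. The lowest VPA library was 9.93-fold the highest DMSO library, and the ratio of the group means was 14.5-fold (log2 change 3.63, SE 0.27, adjusted p = 7.4e-05). Of 6 tested genes of neuropeptides and granule proteins, it was the 1 that passed the test. Cck, the cholecystokinin gene, had 151 ± 9.95 TPM with VPA and 82.8 ± 6.38 TPM with DMSO (log2 change 0.86, SE 0.22, adjusted p = 0.053). The list had 2 higher genes in the fit of the 6 libraries alone, with a pseudocount or filter of 5 TPM, and without JQ1 replicate 1 or 2. It also had 2 on TPM rescaled without mitochondrially encoded genes and Rn18s. The RefSeq promoter of Vip (GRCm38.p6, chr10:5638968-5639267, plus strand, 250 bases before to 50 after the annotated start) is shown because this gene changed the most of those named. Capitals mark the letters of the TATA box (TATAAA) on either strand. The exact letters of the cAMP response element (TGACGTCA) were searched for in the same way and gave no match in this window. The letters TGACGTCT, which differ in the last base, do occur in it, and variants of the element were not searched for.
Vip: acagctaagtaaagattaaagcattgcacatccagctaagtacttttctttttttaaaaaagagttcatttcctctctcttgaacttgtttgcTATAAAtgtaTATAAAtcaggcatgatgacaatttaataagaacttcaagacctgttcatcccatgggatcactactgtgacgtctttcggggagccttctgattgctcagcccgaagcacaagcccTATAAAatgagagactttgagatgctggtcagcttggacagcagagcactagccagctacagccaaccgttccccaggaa
The TATA box letters occurred 3 times in Vip, the last of them with its first base 30 bases before the start. They occurred in 8.19% of 281 promoters of higher genes and in 6.81% of the 8841 promoters found by symbol among the 12836 tested genes. Their share was 21.2% of 113 promoters of lower genes. A match here is a description of letters, not of a bound site.

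Most genes of neurite growth, neuronal cytoskeleton and adhesion that could be tested rose. Of 30 such genes, 16 passed the filter, 10 rose and none fell, with a median log2 change of 0.79 against 0.06 over all tested genes. This list, like all others here, was chosen with earlier results of these data known. From 7 to 11 rose under every alternative setting tried, the lowest number when the 6 libraries were fitted alone. Gap43, a growth-cone membrane protein, had 119, 133 and 114 TPM with VPA, against 28.8, 22.03 and 26.9 TPM with DMSO (log2 change 2.19, SE 0.24, adjusted p = 0.00072). The lowest VPA library was 3.95-fold the highest DMSO library. Thy1, a surface glycoprotein of neurons, T cells and fibroblasts that also stood on the fibroblast list, had 509.6, 442 and 529.8 TPM with VPA, against 154, 147 and 162 TPM with DMSO (log2 change 1.67, SE 0.11, adjusted p = 2.0e-05). The groups were 281 TPM apart at their nearest libraries. Basp1, a growth-cone protein related in function to Gap43, averaged 333 ± 13.1 TPM with VPA and 203 ± 1.98 TPM with DMSO (log2 change 0.71, SE 0.06, adjusted p = 0.00011). The neural cell adhesion gene Ncam1 had 68.2 ± 1.99 TPM with VPA and 34.8 ± 5.41 TPM with DMSO (log2 change 0.96, SE 0.12, adjusted p = 0.0014). Among proteins that bind microtubules or actin, Map1b had 142 ± 10.6 TPM with VPA and 87.7 ± 8.96 TPM with DMSO (log2 change 0.69, SE 0.09, adjusted p = 0.0025), Marcks 23.5 ± 1.34 TPM with VPA and 10.6 ± 1.203 TPM with DMSO (log2 change 1.08, SE 0.18, adjusted p = 0.0087), and Dpysl3 57.3 ± 1.83 TPM with VPA and 36.2 ± 2.35 TPM with DMSO (log2 change 0.65, SE 0.10, adjusted p = 0.0064). Map1a rose as well (log2 change 0.87, SE 0.14, adjusted p = 0.0073), but its adjusted p was 0.0542 when the 6 libraries were fitted alone. The 1 tested gene of this list with a negative change, the CDK5 activator Cdk5r1, had 1.71 ± 0.493 TPM with VPA and 3.103 ± 0.856 TPM with DMSO (log2 change −0.60, SE 0.24, adjusted p = 0.21). Of 11 tested genes of synaptic vesicles and exocytosis, Rab3a alone passed, a small GTPase of regulated secretion, with 10.2, 13.8 and 11.96 TPM with VPA, against 3.39, 2.8 and 5.23 TPM with DMSO (log2 change 1.46, SE 0.26, adjusted p = 0.011). Its groups did not overlap. The silencer gene Rest itself had 23.8 ± 1.53 TPM with VPA and 27.9 ± 1.32 TPM with DMSO (log2 change −0.22, SE 0.10, adjusted p = 0.26), a difference that did not pass.

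**Figure D2:**
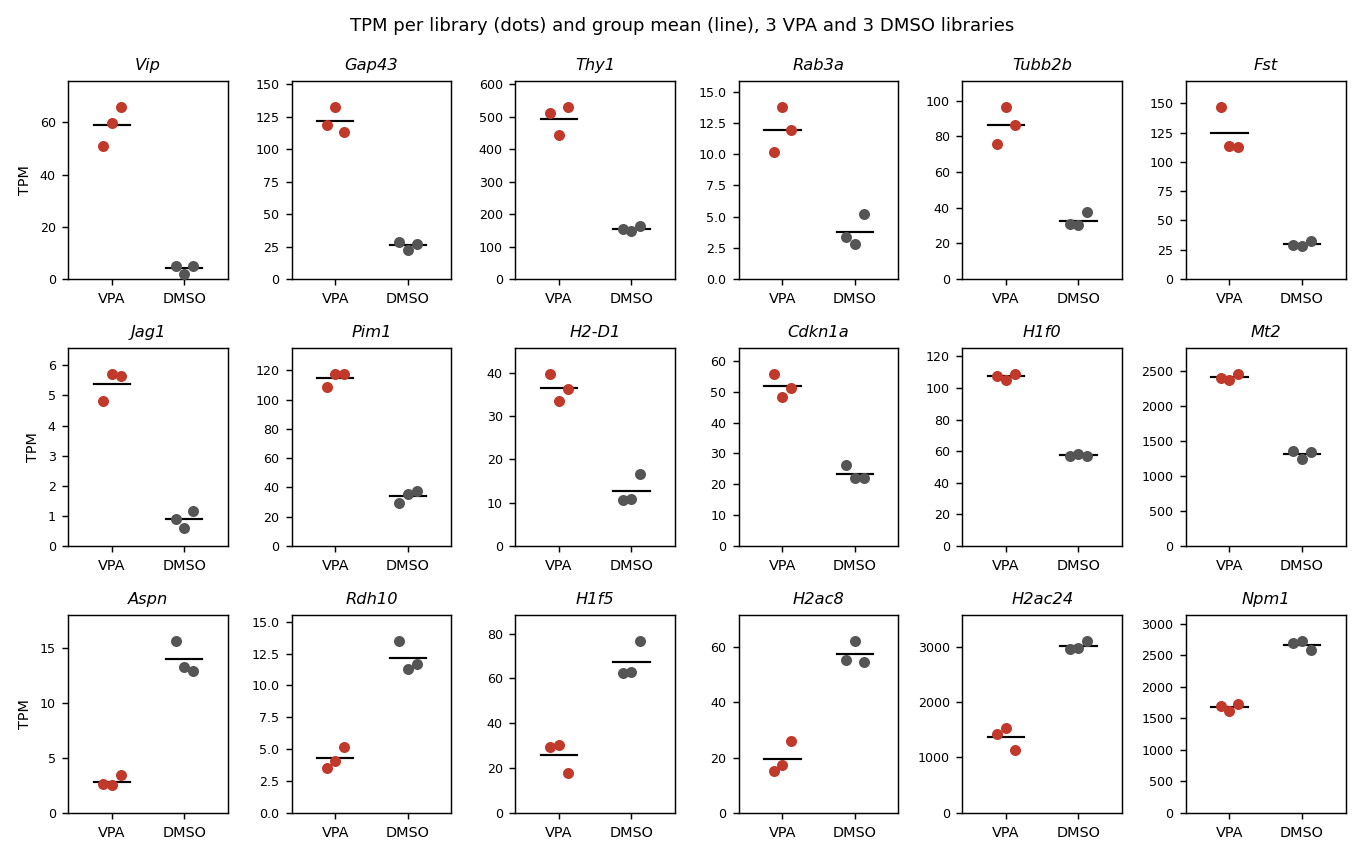
TPM (y axis, from 0) of 18 genes in each of the 3 VPA libraries (red dots, left) and the 3 DMSO libraries (grey dots, right), with a line at the group mean. The 12 genes of the upper 2 rows were higher with VPA and the 6 of the bottom row lower, and in none of the 18 do the dots of the groups overlap.

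Most genes known to rise with HDAC inhibitors rose here. Of 15 listed, 14 passed the filter, 10 rose and none fell, with a median log2 change of 0.56. The list was chosen with earlier results of these data known. Compared with the BET inhibitor JQ1, 2 of the 14 were higher and 9 lower with VPA, with a median log2 change of −0.80. Of the 10 that rose over DMSO, 5 did so in every fit that left out a library (Mt1, Mt2, Gsn, H1f0 and Cdkn1a). Under the alternative settings 5 to 9 of the list rose, 6 with quantile normalization, and in the fits that left out a library 5 to 8. Cdkn1a, the p21 inhibitor of cyclin-dependent kinases, had 55.9, 48.4 and 51.1 TPM with VPA, against 26.4, 22.1 and 21.98 TPM with DMSO (log2 change 1.11, SE 0.15, adjusted p = 0.0026). Every VPA library was above every DMSO library by 22.02 TPM or more. Gelsolin (Gsn), an actin-severing protein, had 71.9 ± 4.64 TPM with VPA and 47.8 ± 4.21 TPM with DMSO (log2 change 0.58, SE 0.08, adjusted p = 0.004). The metallothionein genes Mt2 and Mt1, whose products bind zinc and copper, rose. Mt2 had 2387, 2369 and 2454 TPM with VPA, against 1351, 1236 and 1337 TPM with DMSO (log2 change 0.88, SE 0.04, adjusted p = 4.2e-06), and Mt1 had 2562, 2604 and 2869 TPM with VPA, against 2031, 1999 and 1996 TPM with DMSO (log2 change 0.41, SE 0.04, adjusted p = 0.0003). The nearest libraries of the groups were 1017 TPM apart for Mt2 and 531 TPM apart for Mt1. Of 18 tested genes of metallothioneins and zinc transport, 3 rose and none fell, with a median of 0.06.

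The promoters of these neighbouring genes on chromosome 8 are set side by side because both rose (RefSeq, GRCm38.p6, Mt1 chr8:94178839-94179138, plus strand and Mt2 chr8:94172368-94172667, plus strand). Capitals mark the core of the metal response element (TGCAC or TGCGC, then any base, then C, on either strand) and, in Mt1, the GC box (GGGCGG). In Mt1, the second core and a GC box share 1 base.
Mt1: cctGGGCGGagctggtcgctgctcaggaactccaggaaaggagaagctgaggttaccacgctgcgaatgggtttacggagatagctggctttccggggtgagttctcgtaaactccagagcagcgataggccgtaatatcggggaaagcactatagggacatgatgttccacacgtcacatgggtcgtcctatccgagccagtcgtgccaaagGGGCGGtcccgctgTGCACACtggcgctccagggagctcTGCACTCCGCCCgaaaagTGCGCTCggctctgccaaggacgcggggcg
Mt2: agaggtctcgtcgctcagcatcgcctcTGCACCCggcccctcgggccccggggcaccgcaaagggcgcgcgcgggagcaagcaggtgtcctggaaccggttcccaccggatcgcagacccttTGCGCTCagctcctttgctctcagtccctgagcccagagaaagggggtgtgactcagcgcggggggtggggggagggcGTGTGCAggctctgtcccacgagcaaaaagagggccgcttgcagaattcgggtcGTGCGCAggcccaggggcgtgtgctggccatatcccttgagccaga
The core occurred 3 times in the Mt1 promoter and 4 times in that of Mt2. One match or more was present in 36.7% of all promoters searched, in 34.2% of those of higher genes and in 40.7% of those of lower genes.

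The transcripts of the targeted enzymes themselves were not called. None of 10 tested zinc-dependent HDAC genes passed in either direction by limma, nor any of 28 subunits of HDAC corepressor complexes or of 12 acetyltransferase genes; at an unadjusted p under 0.05 these numbers were 2, 6 and 0. With a pseudocount of 5 TPM, and likewise without JQ1 replicate 2, 1 corepressor gene rose. Hdac1 had 72.8, 84.6 and 73.6 TPM with VPA, against 63.3, 64.3 and 68.6 TPM with DMSO (log2 change 0.23, SE 0.09, adjusted p = 0.21). Its VPA libraries were all above those of DMSO, but the difference did not pass. Hdac2 had 80.8 ± 7.73 TPM with VPA and 82.7 ± 17.5 TPM with DMSO (log2 change −0.01, SE 0.15, adjusted p = 0.98), Hdac3 had 7.18 ± 0.354 TPM with VPA and 6.62 ± 1.24 TPM with DMSO (log2 change 0.12, SE 0.17, adjusted p = 0.78), and Hdac8 had 1.42 ± 0.195 TPM with VPA and 0.91 ± 0.608 TPM with DMSO (log2 change 0.39, SE 0.43, adjusted p = 0.69).

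Histone genes moved in both directions. Of 31 tested, 2 rose and 5 fell, with a median log2 change of −0.10. The summed TPM of the list was 4071 to 4417 with VPA and 5786 to 5917 with DMSO. The gap between the groups in this sum was no larger than that of H2ac24 alone, given below. The replication-independent linker histone H1f0, which accumulates in cells that leave the cycle, rose, with 108, 105 and 109 TPM with VPA, against 56.7, 58.03 and 57.1 TPM with DMSO (log2 change 0.89, SE 0.07, adjusted p = 6.4e-05). The VPA libraries were within 3.85 TPM and the DMSO libraries within 1.34 TPM of each other. The linker histone genes H1f5 and H1f4, which cycling cells transcribe in S phase, fell. H1f5 had 29.4, 30.1 and 17.8 TPM with VPA, against 62.5, 62.7 and 76.8 TPM with DMSO (log2 change −1.38, SE 0.21, adjusted p = 0.005), and H1f4 had 65.8, 57.9 and 53.9 TPM with VPA, against 127, 104 and 119 TPM with DMSO (log2 change −0.96, SE 0.17, adjusted p = 0.01). All VPA libraries were below all DMSO libraries for both. Of the core histones, H2ac24 had 1426, 1525 and 1139 TPM with VPA, against 2955, 2983 and 3105 TPM with DMSO (log2 change −1.15, SE 0.10, adjusted p = 0.00011), and H2ac8 had 15.2, 17.2 and 26.1 TPM with VPA, against 55.4, 62.4 and 54.6 TPM with DMSO (log2 change −1.55, SE 0.27, adjusted p = 0.0093). Replication-dependent histone genes exist as near-identical copies, so the level of a single copy is uncertain. Whether 3′ end sequencing captured their transcripts as fully as those of H1f0 was not tested, so the contrast with H1f0 is of TPM alone. Of the 33 DNA replication genes and the 34 mitosis and spindle genes tested none passed by limma; at an unadjusted p under 0.05 there were 7 and 3, and other settings called at most 1 gene of either list in a direction. The proliferation marker Mki67 had 21.6 ± 0.943 TPM with VPA and 20.1 ± 1.117 TPM with DMSO (log2 change 0.10, SE 0.11, adjusted p = 0.69).

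The promoters of the 3 linker histone genes are shown because these members of 1 family changed in opposite directions (RefSeq, GRCm38.p6, H1f0 chr15:79027962-79028261, plus strand, H1f4 chr13:23622509-23622808, minus strand, H1f5 chr13:21780576-21780875, minus strand). Capitals mark the GC box, the TATA box and the CCAAT box, named for its letters, on either strand.
H1f0: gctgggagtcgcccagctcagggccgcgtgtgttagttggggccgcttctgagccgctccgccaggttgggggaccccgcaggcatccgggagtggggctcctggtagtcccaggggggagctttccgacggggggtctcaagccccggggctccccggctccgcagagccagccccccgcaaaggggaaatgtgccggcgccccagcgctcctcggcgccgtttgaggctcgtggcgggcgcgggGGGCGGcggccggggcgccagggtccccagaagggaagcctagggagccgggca
H1f4: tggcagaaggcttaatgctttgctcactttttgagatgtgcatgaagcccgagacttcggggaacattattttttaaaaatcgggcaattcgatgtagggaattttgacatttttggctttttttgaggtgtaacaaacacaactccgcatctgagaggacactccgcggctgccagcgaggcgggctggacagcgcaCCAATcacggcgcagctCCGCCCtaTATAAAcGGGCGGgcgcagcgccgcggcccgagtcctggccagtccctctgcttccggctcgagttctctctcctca
H1f5: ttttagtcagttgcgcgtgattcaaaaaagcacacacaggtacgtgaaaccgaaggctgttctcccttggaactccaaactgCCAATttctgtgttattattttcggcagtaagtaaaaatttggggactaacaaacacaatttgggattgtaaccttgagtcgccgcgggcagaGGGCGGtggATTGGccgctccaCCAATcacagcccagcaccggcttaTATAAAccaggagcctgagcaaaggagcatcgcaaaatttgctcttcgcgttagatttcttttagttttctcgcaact
H1f4 and H1f5 each held 1 TATA box, 27 and 28 bases before the start, with CCAAT boxes 52 and 53 bases before it. In all, H1f5 held 3 CCAAT boxes and H1f4 held 1. All 3 promoters held the GC box, with 2 matches in H1f4 and 1 each in H1f5 and H1f0. H1f0 held no TATA box and no CCAAT box, and its promoter had 75.0% G and C, against 54.3% in H1f4 and 46.3% in H1f5. CCAAT occurred in 39.9% of all promoters searched, in 40.9% of those of higher and 46.0% of those of lower genes, and the GC box in 66.8%, 64.8% and 71.7%.

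Genes of the actin cytoskeleton changed in part. Of 38 tested, 10 rose and none fell. Their median log2 change was 0.06, the same as over all genes, and −0.01 with median-of-ratios scaling. Add3, the gamma-adducin that joins actin to spectrin, had 16, 21.9 and 14.7 TPM with VPA, against 3.78, 2.53 and 4.07 TPM with DMSO (log2 change 2.05, SE 0.21, adjusted p = 0.00042). The lowest VPA library was 3.602-fold the highest DMSO library. Beta-tropomyosin (Tpm2) had 109.98 ± 3.15 TPM with VPA and 54.3 ± 5.19 TPM with DMSO (log2 change 1.01, SE 0.11, adjusted p = 0.00072), ezrin (Ezr), which links actin to the membrane, 35.1 ± 3.76 TPM with VPA and 18.1 ± 2.902 TPM with DMSO (log2 change 0.92, SE 0.13, adjusted p = 0.0035), and the non-muscle myosin gene Myh10 215 ± 15.9 TPM with VPA and 133 ± 5.56 TPM with DMSO (log2 change 0.68, SE 0.11, adjusted p = 0.0065). Smaller rises were seen in calponin 2 (Cnn2, log2 change 0.46, SE 0.07, adjusted p = 0.0053), the actin-monomer-binding thymosins Tmsb4x (log2 change 0.43, SE 0.06, adjusted p = 0.0035) and Tmsb10 (log2 change 0.31, SE 0.05, adjusted p = 0.0055), and the myosin light chain Myl12a (log2 change 0.30, SE 0.05, adjusted p = 0.0063). Without the intensity trend in the model, the last 3 had adjusted p-values of 0.0577, 0.124 and 0.131, and 6 genes of the list rose; that of Tmsb10 was 0.0547 in the fit of the 6 libraries alone. The cytoplasmic actin genes did not pass: Actb had 3569 ± 195 TPM with VPA and 3285 ± 40.2 TPM with DMSO (log2 change 0.12, SE 0.04, adjusted p = 0.19), and Actg1 had 731 ± 28.5 TPM with VPA and 710.5 ± 28.8 TPM with DMSO (log2 change 0.04, SE 0.04, adjusted p = 0.69). Of 13 tubulin genes, 3 rose and 1 fell. Tubb2b, a beta-tubulin of young neurons, had 75.5, 96.5 and 86.5 TPM with VPA, against 30.8, 30.1 and 37.5 TPM with DMSO (log2 change 1.37, SE 0.11, adjusted p = 0.00011). The nearest libraries of the groups were 38 TPM apart. Tuba1a had 283 ± 9.73 TPM with VPA and 218 ± 19.4 TPM with DMSO (log2 change 0.38, SE 0.07, adjusted p = 0.0095), with an adjusted p of 0.071 when the 6 libraries were fitted alone and 0.0833 without the intensity trend.

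**Figure D3:**
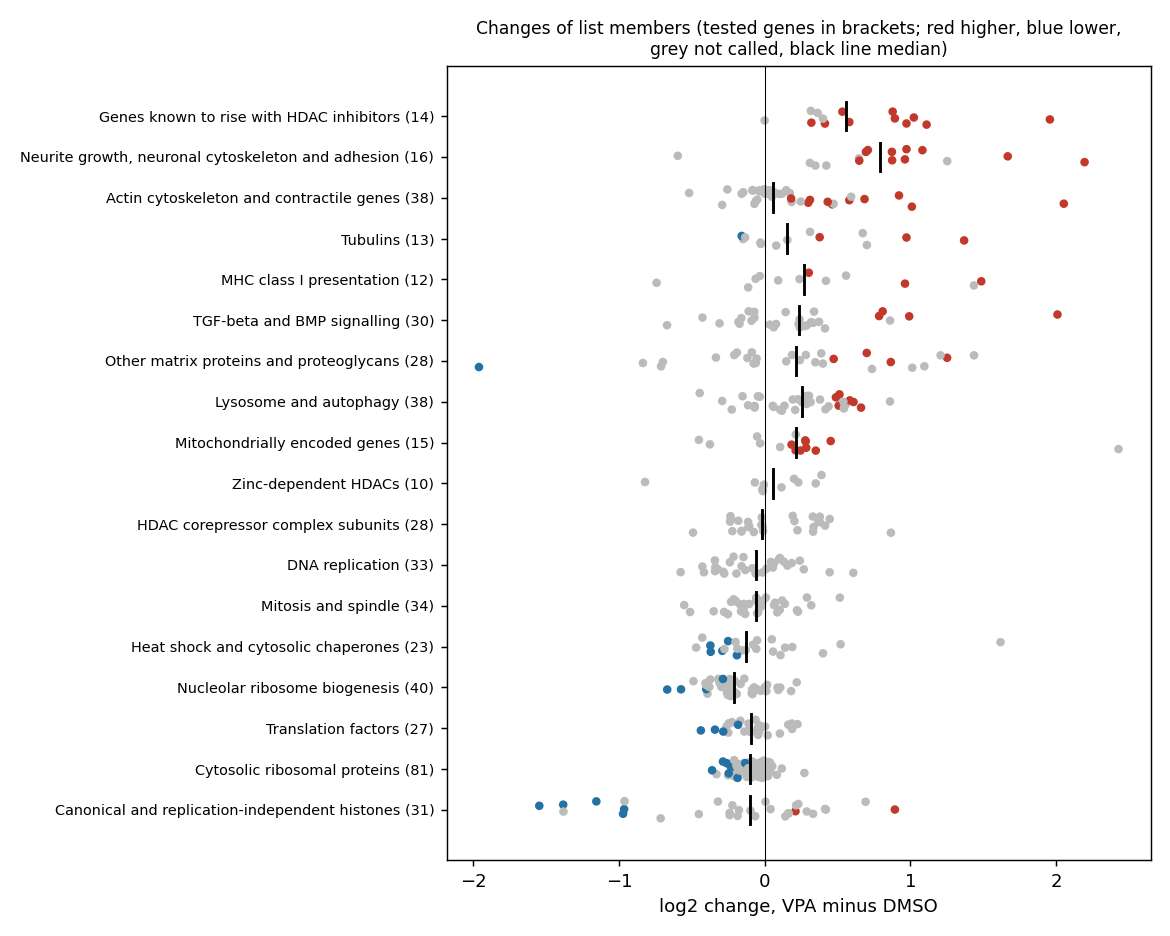
Log2 change, VPA minus DMSO (x axis), of the tested members of 18 gene lists (rows, with the number of tested genes in brackets). Red dots were higher with VPA, blue dots lower and grey dots not called, with black lines at the medians, which run from 0.79 in the neurite list to −0.21 in the nucleolar list.

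Genes of growth factor signalling changed in single members, beside 2.95% higher and 1.32% lower among all tested genes. Of 30 tested genes of TGF-beta and BMP signalling, 4 rose and none fell, and the median log2 change was 0.24. Follistatin (Fst), which binds activins, had 147, 114 and 113 TPM with VPA, against 29.1, 28.6 and 32.4 TPM with DMSO (log2 change 2.01, SE 0.32, adjusted p = 0.0063). The VPA libraries spread over 34.2 TPM and the DMSO libraries over 3.83 TPM, and the nearest were 80.4 TPM apart. The BMP antagonist Grem1 had 197 ± 5.501 TPM with VPA and 114 ± 3.01 TPM with DMSO (log2 change 0.78, SE 0.12, adjusted p = 0.0063). The ligand gene Gdf11 had 6.32 ± 0.613 TPM with VPA and 2.68 ± 0.204 TPM with DMSO (log2 change 0.99, SE 0.17, adjusted p = 0.0095), with an adjusted p of 0.0575 in the fit of the 6 libraries alone. Of 7 tested Notch pathway genes, the ligand Jag1 alone rose, with 4.8, 5.72 and 5.64 TPM with VPA, against 0.9, 0.6 and 1.16 TPM with DMSO (log2 change 1.77, SE 0.28, adjusted p = 0.0064). Its groups did not overlap. The only call among 22 axon guidance genes was a lower one, in ephrin-A1 (Efna1), with 0.55, 1.26 and 0.94 TPM with VPA, against 4.23, 4.35 and 3.94 TPM with DMSO (log2 change −1.45, SE 0.21, adjusted p = 0.0047). The serine/threonine kinase gene Pim1, a target of cytokine signalling, had 108, 118 and 117 TPM with VPA, against 29.4, 35.3 and 37.6 TPM with DMSO (log2 change 1.72, SE 0.09, adjusted p = 4.2e-06). The kinase gene Gsk3b, which restrains WNT signalling, had 105 ± 3.19 TPM with VPA and 74.6 ± 0.5903 TPM with DMSO (log2 change 0.49, SE 0.07, adjusted p = 0.005), while the WNT target Axin2 had 0.37, 1.42 and 0.36 TPM with VPA, against 0.95, 0.37 and 0 TPM with DMSO (log2 change 0.25, SE 0.39, adjusted p = 0.79).

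Matrix genes were divided, beside 2.95% higher and 1.32% lower among all tested genes. Of 28 tested genes of matrix proteins and proteoglycans other than collagens, 4 rose and 1 fell. Osteopontin (Spp1) had 457 ± 26.4 TPM with VPA and 281 ± 25.2 TPM with DMSO (log2 change 0.70, SE 0.11, adjusted p = 0.0067), the proteoglycan versican (Vcan) 56.9 ± 9.31 TPM with VPA and 30.6 ± 2.88 TPM with DMSO (log2 change 0.87, SE 0.13, adjusted p = 0.0056), and the hyaluronan synthase Has2 9.01 ± 0.814 TPM with VPA and 3.21 ± 0.361 TPM with DMSO (log2 change 1.25, SE 0.18, adjusted p = 0.0046). The gene that fell was asporin (Aspn), a small leucine-rich proteoglycan, with 2.61, 2.5 and 3.42 TPM with VPA, against 15.6, 13.3 and 12.9 TPM with DMSO (log2 change −1.96, SE 0.26, adjusted p = 0.0027). It had the largest drop among the named genes, and its groups were 9.46 TPM apart at their nearest libraries. Of 29 collagen and collagen-processing genes, 1 rose and 2 fell; 4 fell with median-of-ratios scaling, none without the intensity trend and 1 without any VPA library, DMSO replicate 1 or DMSO replicate 3. Col1a2, a chain of type I collagen, had 374 ± 10.6 TPM with VPA and 469.6 ± 19.6 TPM with DMSO (log2 change −0.33, SE 0.05, adjusted p = 0.0032), with an adjusted p of 0.09 without the intensity trend. Of 19 matrix protease and inhibitor genes, 4 rose and none fell, and leaving out any 1 of the 12 libraries left 1 to 3 higher genes on that list. Rdh10, a retinol dehydrogenase that makes retinaldehyde, had 3.54, 4.1 and 5.18 TPM with VPA, against 13.5, 11.3 and 11.7 TPM with DMSO (log2 change −1.33, SE 0.23, adjusted p = 0.0087). The highest VPA library was 0.459 of the lowest DMSO library. It was 1 of 2 lower genes and 1 higher gene among 12 of retinoid metabolism.

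Surface and immune genes rose in small numbers, beside 2.95% higher among all tested genes. Of 12 tested MHC class I presentation genes, 3 rose and none fell. The class I heavy chain H2-D1 had 39.8, 33.6 and 36.3 TPM with VPA, against 10.6, 10.7 and 16.6 TPM with DMSO (log2 change 1.49, SE 0.16, adjusted p = 0.0005). H2-K1 had 103 ± 18.7 TPM with VPA and 52.97 ± 12.7 TPM with DMSO (log2 change 0.96, SE 0.16, adjusted p = 0.0073), with an adjusted p of 0.0793 in the fit of the 6 libraries alone. H2-D1 and H2-K1 are similar in sequence, so reads may be split between them. The third was calreticulin (Calr), an ER chaperone that serves class I loading, with 933 ± 24.9 TPM with VPA and 757 ± 9.51 TPM with DMSO (log2 change 0.30, SE 0.04, adjusted p = 0.004; 0.12 without the intensity trend). Of 21 interferon-related genes, Ifi27 alone rose, with 81.5 ± 4.89 TPM with VPA and 45.6 ± 4.38 TPM with DMSO (log2 change 0.83, SE 0.15, adjusted p = 0.01). Of 16 chemokine and cytokine genes, 3 rose, leaving out any 1 of the 12 libraries left 1 to 3, and 1 rose in the fit of the 6 libraries alone. The monocyte chemokine Ccl2 had 88.3 ± 13.3 TPM with VPA and 53.3 ± 7.01 TPM with DMSO (log2 change 0.72, SE 0.13, adjusted p = 0.01; 0.0711 in the fit of the 6 libraries alone). Ly6c1, a surface protein of endothelial cells and leukocytes with the near-identical copy Ly6c2, had 60.98, 50.3 and 62.4 TPM with VPA, against 14.7, 21.8 and 18.5 TPM with DMSO (log2 change 1.62, SE 0.22, adjusted p = 0.0028). The nearest libraries of the groups were 28.5 TPM apart. Among 30 genes of the immediate early response, AP-1 included, 4 rose and 1 fell, and without any 1 of the 12 libraries 2 to 4 rose, and 1 in the fit of the 6 libraries alone. Ier3 had 346 ± 11.6 TPM with VPA and 225 ± 24.8 TPM with DMSO (log2 change 0.62, SE 0.08, adjusted p = 0.0023). The nuclear receptor gene Nr4a2 had 18.2 ± 2.39 TPM with VPA and 9.83 ± 1.56 TPM with DMSO (log2 change 0.83, SE 0.14, adjusted p = 0.0094; 0.0735 in the fit of the 6 libraries alone).

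Some genes of ribosome production fell, each by a small amount. Of 40 nucleolar ribosome biogenesis genes, 4 fell and none rose, 32 had a negative change, and the median log2 change was −0.21. With median-of-ratios scaling 10 of them fell, and without the intensity trend 2. The nucleolar chaperone gene Npm1 had 1692, 1612 and 1729 TPM with VPA, against 2691, 2729 and 2582 TPM with DMSO (log2 change −0.67, SE 0.05, adjusted p = 3.9e-05). Its groups were 852 TPM apart at their nearest libraries. Dkc1, the pseudouridine synthase of H/ACA particles, had 396, 413 and 333 TPM with VPA, against 558, 568 and 569 TPM with DMSO (log2 change −0.57, SE 0.08, adjusted p = 0.0025), and nucleolin (Ncl) had 743 ± 20.04 TPM with VPA and 982 ± 17.6 TPM with DMSO (log2 change −0.40, SE 0.05, adjusted p = 0.0028; 0.0612 without the intensity trend). Of 81 tested cytosolic ribosomal protein genes, 13 fell, none rose and 71 had a negative change, with a median of −0.10. The changes were small. Rplp1 had 10060.2, 10094 and 10538 TPM with VPA, against 12496, 12485 and 12435 TPM with DMSO (log2 change −0.29, SE 0.03, adjusted p = 0.00055), and Rplp0 had 772 ± 12.6 TPM with VPA and 992 ± 15.9 TPM with DMSO (log2 change −0.36, SE 0.03, adjusted p = 0.00027). The number of lower ribosomal protein genes was 30 with median-of-ratios scaling, 0 without the intensity trend and 7 in the fit of the 6 libraries alone. It was 6 to 8 without any DMSO library, VPA replicate 1 or VPA replicate 2. With quantile normalization 7 were lower and 3 higher. Of 27 translation factor genes, 4 fell, with 9 lower under median-of-ratios scaling, 1 without the intensity trend and 2 with quantile normalization. The initiation factor Eif5 had 365 ± 23.3 TPM with VPA and 494 ± 13.8 TPM with DMSO (log2 change −0.44, SE 0.06, adjusted p = 0.002). The elongation factor Eef1a1 had 1873 ± 38.7 TPM with VPA and 2281 ± 21.9 TPM with DMSO (log2 change −0.28, SE 0.03, adjusted p = 0.00038; 0.0712 with quantile normalization and 0.122 without the intensity trend). The poly(A)-binding protein Pabpc1 had 1662 ± 41.5 TPM with VPA and 2105 ± 12.7 TPM with DMSO (log2 change −0.34, SE 0.03, adjusted p = 0.0003; 0.0753 without the trend). Processed pseudogenes of ribosomal protein genes share sequence with them, which makes single members uncertain. Myc, whose product drives this group of genes, had 30.7, 33.8 and 24.6 TPM with VPA, against 22.2, 22.2 and 20.1 TPM with DMSO (log2 change 0.44, SE 0.13, adjusted p = 0.096). The difference did not pass, though it did when VPA replicate 3 was left out.

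Heat shock and cytosolic chaperone genes had 5 lower and no higher members of 23, with a median of −0.13, and without the intensity trend none fell. The number that fell was 2 with quantile normalization, 1 in the fit of the 6 libraries alone, 2 without any DMSO library or VPA replicate 2, and 3 without VPA replicate 3 or SAHA replicate 1. Hsp90ab1 had 3915, 4059 and 3951 TPM with VPA, against 4869, 4913 and 4803 TPM with DMSO (log2 change −0.29, SE 0.02, adjusted p = 0.00011; 0.113 without the trend), and Hsp90aa1 had 5489 ± 232 TPM with VPA and 6262 ± 125 TPM with DMSO (log2 change −0.19, SE 0.03, adjusted p = 0.0095; 0.566 with quantile normalization, 0.0678 in the fit of the 6 libraries alone and 0.312 without the trend). The ER chaperone gene Hspa5, which VPA has been described to raise in other cells, had 1234 ± 56.6 TPM with VPA and 1202 ± 20.8 TPM with DMSO (log2 change 0.04, SE 0.04, adjusted p = 0.7).

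Mitochondrially encoded genes rose in part. Of 15 tested, 8 rose and none fell, with a median log2 change of 0.21. The list summed to 119100 to 124000 TPM with VPA and 110500 to 112200 TPM with DMSO. The complex I gene mt-Nd4 had 11794, 11138 and 12742 TPM with VPA, against 8656, 8823 and 8547 TPM with DMSO (log2 change 0.45, SE 0.07, adjusted p = 0.0048), and the complex IV gene mt-Co2 had 11416, 10779 and 11944 TPM with VPA, against 9541, 9243 and 9333 TPM with DMSO (log2 change 0.28, SE 0.05, adjusted p = 0.0073). Their groups did not overlap on deposited TPM. With quantile normalization their adjusted p-values were 0.0755 and 0.851, and over the list 5 genes were higher and 2 lower, against 5 higher and 1 lower with median-of-ratios scaling. mt-Nd2 rose by a log2 change of 0.18 (adjusted p = 0.0072) but was lower with VPA under quantile normalization, with a log2 change of −0.16 (adjusted p = 4.83e-05), and had an adjusted p of 0.0601 with median-of-ratios scaling. Without the intensity trend no gene of the list passed. Of 41 nuclear-encoded respiratory chain genes, 8 rose and none fell, 36 had a positive change and the median was 0.16. Leaving out any 1 of the 12 libraries left 1 to 9 higher genes, median-of-ratios scaling 2 and the model without trend 0.

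Lipid, lysosome and detoxification genes changed in single members, beside 2.95% higher and 1.32% lower among all tested genes. VPA is itself broken down by mitochondrial beta-oxidation and coupled to carnitine; of 24 tested genes of that route, 3 rose and none fell, with a median of 0.24, and leaving out any 1 of the 6 VPA and DMSO libraries left 0 or 1. The lipoprotein lipase gene Lpl had 36.4, 30.8 and 35.9 TPM with VPA, against 18.4, 14.8 and 18.1 TPM with DMSO (log2 change 0.97, SE 0.12, adjusted p = 0.0014). The nearest libraries of its groups were 12.4 TPM apart. The fatty acid elongase Elovl5 had 47.7 ± 3.95 TPM with VPA and 30.9 ± 2.87 TPM with DMSO (log2 change 0.61, SE 0.10, adjusted p = 0.0078; 0.0554 in the fit of the 6 libraries alone), and Cyp51 of cholesterol synthesis had 154 ± 7.7 TPM with VPA and 206 ± 7.55 TPM with DMSO (log2 change −0.42, SE 0.07, adjusted p = 0.0066; 0.0553 without the intensity trend). Of 38 lysosome and autophagy genes, 6 rose, none fell and the median was 0.26, with 2 to 5 rising when any 1 of the 6 VPA and DMSO libraries was left out. The protease cathepsin L (Ctsl) had 187 ± 7.83 TPM with VPA and 131 ± 6.82 TPM with DMSO (log2 change 0.51, SE 0.06, adjusted p = 0.0013), and progranulin (Grn) had 99.8 ± 5.65 TPM with VPA and 65.2 ± 7.14 TPM with DMSO (log2 change 0.61, SE 0.10, adjusted p = 0.008). Of 28 NRF2 and glutathione genes, 3 rose and 3 fell. None of the list fell without the intensity trend or without DMSO replicate 2, DMSO replicate 3 or VPA replicate 1, and 5 fell with median-of-ratios scaling. The glutathione transferase Gsto1 had 138 ± 12.1 TPM with VPA and 84.2 ± 7.89 TPM with DMSO (log2 change 0.71, SE 0.11, adjusted p = 0.0069). Qdpr, which recycles tetrahydrobiopterin, had 52.8 ± 3.85 TPM with VPA and 31.05 ± 4.46 TPM with DMSO (log2 change 0.75, SE 0.13, adjusted p = 0.009). The GABA transaminase gene Abat, an enzyme VPA inhibits, was listed at 0 in all 6 libraries. Aldh5a1, the next enzyme of GABA breakdown, had 0.67, 1.02 and 1.67 TPM with VPA, against 0.45, 0.39 and 0.67 TPM with DMSO (log2 change 0.47, SE 0.27, adjusted p = 0.38). Isyna1, the inositol-phosphate synthase whose activity VPA lowers in yeast and brain, had 24.3 ± 5.01 TPM with VPA and 29.6 ± 1.64 TPM with DMSO (log2 change −0.29, SE 0.17, adjusted p = 0.39), and none of 18 tested genes of inositol and phosphoinositide metabolism passed, with 1 at an unadjusted p under 0.05.

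Among G1 cyclins, RB family genes and CDK inhibitors, 3 of 22 rose and none fell. Besides Cdkn1a they included cyclin D3 (Ccnd3), with 71.8 ± 10.4 TPM with VPA and 38.7 ± 6.397 TPM with DMSO (log2 change 0.88, SE 0.15, adjusted p = 0.0093; 0.054 in the fit of the 6 libraries alone). Chromatin genes had single calls. The Polycomb repressor gene Bmi1 had 14.3, 15.2 and 13.5 TPM with VPA, against 36.5, 24.5 and 25.8 TPM with DMSO (log2 change −0.95, SE 0.18, adjusted p = 0.013; 0.0595 in that fit), the only call among 26 genes of Polycomb and DNA methylation. The nucleosome-binding Hmgn5 had 88.7 ± 10.6 TPM with VPA and 45.5 ± 2.72 TPM with DMSO (log2 change 0.94, SE 0.12, adjusted p = 0.0025), and Hmgb2, an architectural protein of cycling cells, had 756 ± 14.4 TPM with VPA and 1046 ± 60.1 TPM with DMSO (log2 change −0.47, SE 0.07, adjusted p = 0.0065; 0.0577 without the intensity trend). The DNA double-strand break sensor gene Nbn had 12.7 ± 2.35 TPM with VPA and 25.3 ± 3.25 TPM with DMSO (log2 change −0.95, SE 0.17, adjusted p = 0.011; 0.0608 in the fit of the 6 libraries alone).

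Several of the largest changes lay in genes outside these groups. Hcfc1r1, which encodes a regulator of the host cell factor HCFC1, had 407, 451 and 463 TPM with VPA, against 162, 134 and 142 TPM with DMSO (log2 change 1.59, SE 0.08, adjusted p = 4.2e-06). Its lowest VPA library was 2.51-fold its highest DMSO library. Fam171a2 had 9.81, 9.35 and 10.8 TPM with VPA, against 1.84, 1.66 and 1.89 TPM with DMSO (log2 change 1.97, SE 0.24, adjusted p = 0.0014), with tight groups on both sides. Eif4e3, a cap-binding protein, had 5.67, 4.57 and 6.6 TPM with VPA, against 1.02, 0.59 and 1.07 TPM with DMSO (log2 change 1.80, SE 0.32, adjusted p = 0.01). Its groups did not overlap. Hba-a2, an alpha-globin gene with the near-identical copy Hba-a1, had 18.6, 7.82 and 7.49 TPM with VPA, against 0, 1.51 and 1.25 TPM with DMSO (log2 change 2.67, SE 0.41, adjusted p = 0.0058; 0.058 in the fit of the 6 libraries alone). VPA replicate 1 was the highest of the 6 libraries, and the groups did not overlap. The ribonuclease gene Rnase4 had 45.8 ± 6.27 TPM with VPA and 14.4 ± 1.26 TPM with DMSO (log2 change 1.6, SE 0.16, adjusted p = 0.00038), the kinase anchor Akap12 9.18 ± 2.05 TPM with VPA and 2.29 ± 0.607 TPM with DMSO (log2 change 1.63, SE 0.28, adjusted p = 0.0097), and the centrin gene Cetn4 12.01 ± 1.99 TPM with VPA and 3.13 ± 0.841 TPM with DMSO (log2 change 1.66, SE 0.27, adjusted p = 0.0066). On the lower side, the water channel Aqp1 had 11.98, 7.21 and 5.76 TPM with VPA, against 23.7, 19.2 and 20.3 TPM with DMSO (log2 change −1.30, SE 0.23, adjusted p = 0.0097; 0.071 in the fit of the 6 libraries alone). The highest VPA library was 0.622 of the lowest DMSO library. Trmt112, a partner of RNA methyltransferases, had 205 ± 17.9 TPM with VPA and 340.1 ± 25.02 TPM with DMSO (log2 change −0.73, SE 0.09, adjusted p = 0.0014), Rex1bd 66.03 ± 5.06 TPM with VPA and 107 ± 6.496 TPM with DMSO (log2 change −0.69, SE 0.11, adjusted p = 0.0064), and the pyrophosphate transport gene Ank 27.4 ± 1.76 TPM with VPA and 43.2 ± 0.581 TPM with DMSO (log2 change −0.64, SE 0.12, adjusted p = 0.011).

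Bc1, a short noncoding RNA known from neuronal dendrites, had 18887, 18663 and 17486 TPM with VPA, against 12410, 12298 and 12099.9 TPM with DMSO (log2 change 0.58, SE 0.06, adjusted p = 0.00063). The nearest libraries of the groups were 5076 TPM apart. Bc1 shares sequence with ID repeats scattered over the genome, so its level is uncertain. Of 22 long noncoding and snoRNA host RNAs, the paraspeckle RNA Neat1 rose, with 19.5 ± 2.16 TPM with VPA and 8.37 ± 0.804 TPM with DMSO (log2 change 1.13, SE 0.12, adjusted p = 0.00066), and Zfas1 fell, with 295 ± 5.65 TPM with VPA and 462 ± 44.6 TPM with DMSO (log2 change −0.64, SE 0.10, adjusted p = 0.0064); 4 of the list fell with median-of-ratios scaling. The calcium-binding S100 proteins split. S100a6 had 8169, 8355 and 8782 TPM with VPA, against 6443, 6463 and 6748 TPM with DMSO (log2 change 0.36, SE 0.03, adjusted p = 0.00011; 0.0622 without the intensity trend), and S100a4 had 4819.8, 4702 and 5101 TPM with VPA, against 6632, 6740.4 and 6786 TPM with DMSO (log2 change −0.46, SE 0.04, adjusted p = 7.5e-05). The groups were apart in both genes, in opposite directions. Of 16 S100 and annexin genes, 4 rose and 3 fell, and among those that rose was annexin A6 (Anxa6), with 21.9 ± 2.85 TPM with VPA and 8.17 ± 0.997 TPM with DMSO (log2 change 1.32, SE 0.19, adjusted p = 0.0036).

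VPA and SAHA, which inhibit HDACs and differ in structure, a branched fatty acid and a hydroxamate, were compared directly in the same fit, at doses and exposure times that differed. The compound therefore cannot be told apart from dose and time here. With VPA, 24 genes were higher than with SAHA (0.187% of those tested) and 34 lower (0.265%). Leaving out a VPA or SAHA library left 6 to 19 higher and 9 to 20 lower genes, and 75 were lower with median-of-ratios scaling, by which the share of higher calls was 21.9%, against 41.4% on deposited TPM. H1f0 had 108, 105 and 109 TPM with VPA, against 73.7, 66.9 and 69.2 TPM with SAHA (log2 change 0.61, SE 0.07, adjusted p = 0.0023; 0.0526 in the fit of both groups alone). H2ac24 had 1426, 1525 and 1139 TPM with VPA, against 2289, 2295 and 2709 TPM with SAHA (log2 change −0.84, SE 0.10, adjusted p = 0.0032; 0.137 in that fit). Both histone genes lay without overlap, one higher and one lower with VPA. Cytoplasmic gamma-actin (Actg1) had 722, 708 and 763 TPM with VPA, against 491, 498 and 482 TPM with SAHA (log2 change 0.57, SE 0.04, adjusted p = 0.0003). Lower with VPA were the neutrophil chemokine Cxcl5, with 26.2, 27.5 and 28.5 TPM with VPA, against 69.1, 59.9 and 56.9 TPM with SAHA (log2 change −1.14, SE 0.13, adjusted p = 0.0026), and Cdkn2a, the p16 and p19 tumour suppressor locus, with 749, 759 and 717 TPM with VPA, against 1052, 1042 and 1064 TPM with SAHA (log2 change −0.50, SE 0.04, adjusted p = 0.0003). In the DMSO libraries, Cxcl5 had 28.7, 33.8 and 29.0 TPM and Cdkn2a had 799, 787 and 801 TPM; the log2 changes of VPA over DMSO, neither of which passed, were −0.15 (adjusted p = 0.6) and −0.10 (adjusted p = 0.17). Ifrd1 (log2 change −0.56, SE 0.06, adjusted p = 0.0028) and S100a11 (log2 change −0.38, SE 0.04, adjusted p = 0.0019) were also lower with VPA than with SAHA. Over DMSO, S100a11 rose with VPA, its lowest VPA library 1.32-fold the highest DMSO library. Against SAHA without the trend, adjusted p-values were 0.0548 for Actg1, 0.0548 for H2ac24, 0.0782 for Cdkn2a, 0.0922 for Ifrd1 and 0.195 for S100a11. In the fit of both groups alone they were 0.054 for Ifrd1 and 0.0817 for S100a11. For Vip, Gap43, Thy1, Cdkn1a and Npm1, which changed against DMSO, no difference from SAHA passed; intervals are not adjusted for the number of genes. Vip had 51.03, 59.8 and 65.9 TPM with VPA, against 62.2, 62.6 and 64.8 TPM with SAHA, a log2 difference of −0.11 with a 95% interval of −0.71 to 0.50. For Gap43 the difference was 0.21 (−0.33 to 0.74), for Thy1 −0.19 (−0.43 to 0.04), for Cdkn1a −0.02 (−0.34 to 0.31) and for Npm1 −0.03 (−0.13 to 0.07).

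**Figure D4:**
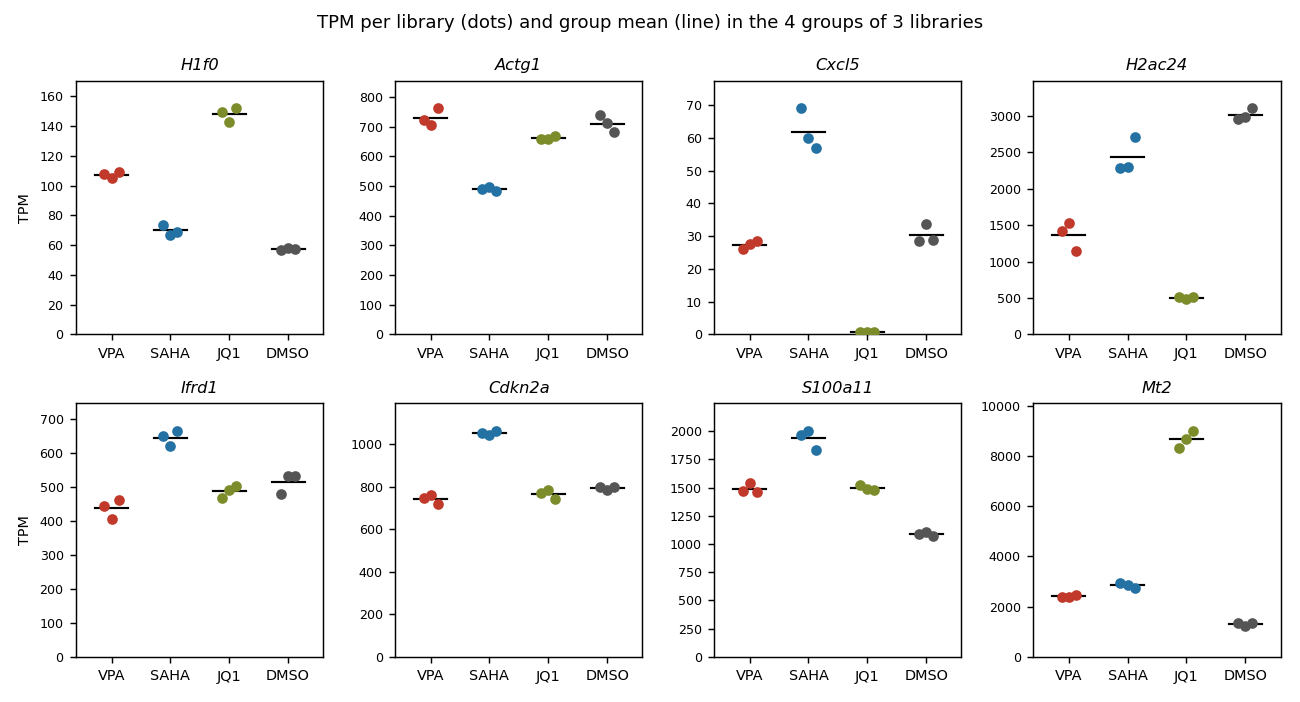
TPM (y axis, from 0) of 8 genes in the 3 libraries (dots) of each group, in the order VPA, SAHA, JQ1 and DMSO, with a line at the group mean. H1f0 was higher and H2ac24 lower with VPA than with SAHA, and Cxcl5, Ifrd1, Cdkn2a and S100a11 were lower with VPA than with SAHA.

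VPA and JQ1 were given for the same 36 h at different doses. With VPA, 2945 genes were higher than with JQ1 (22.9% of those tested) and 1319 lower (10.3%). Deposited TPM set the median of all genes 0.14 higher with VPA on the log2 scale. Median-of-ratios scaling and quantile normalization removed that shift, and with them 54.0% and 52.5% of calls were higher, against 69.1% on deposited TPM. Of the genes VPA raised over DMSO, Vip had 51.03, 59.8 and 65.9 TPM with VPA, against 5.97, 3.04 and 3.86 TPM with JQ1 (log2 change 3.53, SE 0.27, adjusted p = 2.8e-06), and Gap43 had 119, 133 and 114 TPM with VPA, against 1.21, 4.02 and 3.24 TPM with JQ1 (log2 change 5.08, SE 0.24, adjusted p = 7.2e-08). Fst had 147, 114 and 113 TPM with VPA, against 1.89, 0.71 and 4.46 TPM with JQ1 (log2 change 5.38, SE 0.32, adjusted p = 3.8e-07), and Grem1 had 202, 191 and 198 TPM with VPA, against 4.6, 7.06 and 7.04 TPM with JQ1 (log2 change 4.80, SE 0.12, adjusted p = 6.9e-10). In each of these 4 genes every JQ1 library was below every VPA library. For Gap43, Fst and Grem1 the JQ1 libraries were also below the DMSO levels given above. Their differences between VPA and JQ1 are therefore larger than their rises over DMSO. Mt2 and Pim1, which also rose over DMSO, were lower with VPA than with JQ1: Mt2 had 2387, 2369 and 2454 TPM with VPA, against 8318, 8657 and 9005 TPM with JQ1 (log2 change −1.85, SE 0.04, adjusted p = 3.8e-10), and Pim1 had 108, 118 and 117 TPM with VPA, against 187, 184 and 194 TPM with JQ1 (log2 change −0.71, SE 0.09, adjusted p = 0.00011). The interleukin-33 receptor gene Il1rl1, with no call against DMSO, had 173, 172 and 180.2 TPM with VPA, against 1.91, 8.76 and 0.98 TPM with JQ1 (log2 change 5.52, SE 0.43, adjusted p = 2.7e-06). The histone gene H4c9 had 8.53, 9.74 and 6.28 TPM with VPA, against 117, 111 and 115 TPM with JQ1 (log2 change −3.67, SE 0.23, adjusted p = 4.9e-07). Of 33 DNA replication genes, 29 were higher with VPA than with JQ1 and none lower, and of 34 mitosis and spindle genes 32 were higher and none lower. Between VPA and DMSO no gene of either list was called. Of 38 lysosome and autophagy genes, 2 were higher and 20 lower with VPA. Their directions were the same under the 3 other scalings, with 27 to 29 higher replication genes, 31 higher mitosis genes and 23 to 27 lower lysosome genes.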

How the data were processed

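Expression was measured by QuantSeq 3′ mRNA sequencing in 12 ISOS-1 libraries, 3 per group, grouped by their titles. The values are TPM as deposited by the authors in 1 matrix of the whole series, made from RSEM gene results per the file headers. Per the submitters' processing notes, the tools were STAR, RSEM, edgeR and bcl2fastq 2.17 and the build mm39, with no roles given. TPM divides by transcript length although 3′ tags are not longer for long transcripts, so TPM levels do not rank different genes. The 3 per-drug tables of the authors were not used; in the DMSO and SAHA one the identifiers are shifted by 1 line against the values.

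The limma package (version 3.58.1, R 4.3.3) was fitted to log2(TPM + 1) of all 12 libraries with 4 group means, 8 residual degrees of freedom and an intensity trend in the prior variance. Fold changes on that scale understate those of low genes. P-values were two-sided and Benjamini-Hochberg adjusted over the 12836 genes that reached 1 TPM in 3 or more libraries, with calls under 0.05. Errors are SD over 3 libraries (TPM) or the model's SE (log2), and intervals are 95%. The script was tested on simulated data. Alternatives were another pseudocount, filter or scaling, no trend, 2 groups alone, the replicate number as a block, and each library left out. Genes named are the 15 with the largest changes in each direction among calls kept without any 1 library and at 5 TPM or more, those with the largest TPM differences, and called members of 70 gene lists; genes that meet this rule but are not given are not reported here. The members and the lists were chosen with earlier results of these data known. Promoters are RefSeq sequences of GRCm38.p6; no coordinates of mm39 were used. No read depth can be had from TPM.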

Additional observations from a re-analysis of the deposited data

How the results depend on the processing

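Against DMSO, 379 genes were higher and 169 lower. The 6 libraries alone gave 173 and 70, the model without the intensity trend 269 and 72, median-of-ratios scaling 270 and 299, and the other pseudocounts, filters and scalings 272 to 388 and 126 to 185. Leaving out 1 library gave 209 to 349 higher and 73 to 159 lower genes; leaving out any VPA or DMSO library moved both counts by over 1.5 times, and leaving out any SAHA or JQ1 library did not. Against SAHA, 24 were higher and 34 lower. The 2 groups alone gave 10 and 9, no trend 11 and 3, median-of-ratios scaling 21 and 75, and leaving out 1 library 6 to 26 and 9 to 35. Against JQ1, 2945 were higher and 1319 lower, quantile normalization gave 2217 and 2005, and leaving out 1 library 2597 to 2939 and 1059 to 1330.

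With the replicate block, 281 genes were higher and 118 lower than with DMSO, 11 and 13 than with SAHA, and 2855 and 1252 than with JQ1. Deviations of same-numbered VPA and DMSO libraries from their group means correlated at 0.006, 0.043 and −0.026, and those of unlike number at −0.039 to 0.034. Same-numbered VPA and JQ1 libraries gave 0.079, 0.045 and 0.002, and unlike numbers −0.067 to 0.027. Each mean rests on 3 libraries, and the labels do not say what the numbers stand for. Whether equal numbers mark shared cultures is therefore not settled by these values.

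Of 106 named genes called against DMSO, 990 of 1050 values under the other settings kept direction and call, 59 lost the call and 1 reversed, mt-Nd2 with quantile normalization (−0.158). Leaving out 1 library kept 1261 of 1272 values, and the 11 lost were all of Cd34. The naming rule asked for or favoured genes called in all 12 of these fits, so this share was largely set in advance. Among all calls, 155 of 379 higher and 54 of 169 lower genes were kept in all 12. Of the 11 genes with no call that were followed over these settings, Myc gained one without VPA replicate 3, and Hspa5 reversed with median-of-ratios scaling (−0.038). Cck, Cdk5r1, Actb and Actg1, also without a call against DMSO, were not among the genes followed. Without 1 library in turn, Hdac2 ran from −0.199 to 0.096 and Axin2 from −0.024 to 0.497. All values of 14 genes followed against JQ1 held. Not all of these are named above, and part of them were picked for a call in every fit that left out a library. The causes were not tested. With no depth in the files, the counting error of low values is unknown, and a value listed at 0 sets no limit.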

Other observations

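Other gene lists held few calls between VPA and DMSO, beside 2.95% higher and 1.32% lower among all tested genes. Among Kruppel-like transcription factors 3 of 15 rose and none fell; 1 rose with median-of-ratios or quantile scaling, with the replicate block, without the intensity trend and when any VPA, DMSO or JQ1 library was left out, and none in the fit of the 6 libraries alone. Klf5 had 97.4 ± 9.23 TPM with VPA and 68.04 ± 4.67 TPM with DMSO (log2 change 0.51, SE 0.09, adjusted p = 0.0087; 0.0638 in the fit of the 6 libraries alone). The glutathione transferase Gsta4 had 46.3 ± 10.3 TPM with VPA and 21.5 ± 5.102 TPM with DMSO (log2 change 1.07, SE 0.18, adjusted p = 0.0077; 0.0738 in that fit). Of 26 growth factor and receptor kinase genes 3 rose, of 16 WNT targets 2, of 31 genes of cilia and centrosomes 2, and of 21 genes of the unfolded protein response 2, with none lower in any of these 4 lists. The growth factor list had no higher gene without DMSO replicate 1, without VPA replicate 1 or in the fit of the 6 libraries alone. Without 1 library in turn the other 3 lists each had 1 to 2. Fatty acid synthesis had 2 higher genes and 1 lower of 16, iron handling 1 and 2 of 12, PPAR targets 1 and 1 of 12, and HMGA-related genes 1 and 2 of 12. Cholesterol synthesis had 1 lower gene of 23, and BET proteins with P-TEFb 1 of 10. Of the genes in these last 6 lists, 1 higher fatty acid synthesis gene, the higher PPAR target, 1 higher and 1 lower HMGA-related gene and the lower cholesterol gene were called in all 12 fits that left out a library.

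A single gene rose and none fell among 15 genes of NF-kB, 19 of the p53 pathway, 18 of the integrated stress response, 20 of glycolysis, 13 of the VEGF system, 11 of thioredoxin, 11 of GABA and glutamate, 11 of globins and haem, and 8 imprinted genes. Only those of the p53 pathway and of globins and haem were called in all 12 fits that left out a library. By limma no gene passed among 21 of the BCL2 family and caspases, 25 of one-carbon metabolism, 10 of the MYC and MAX network and 12 ID and E proteins; at an unadjusted p under 0.05 there were 4, 5, 4 and 1. Without SAHA replicate 2, 1 gene of one-carbon metabolism rose, and 1 with a pseudocount or a filter of 5 TPM. In the MYC and MAX network 1 gene rose without VPA replicate 1, and 1 without VPA replicate 3, which was Myc. Of 29 germline genes listed, 1 passed the filter and none was called, with 0 at an unadjusted p under 0.05. Of pericyte markers, 2 were tested without a call, and their summed level was 43.5 to 52.8 TPM with VPA and 50.02 to 61.61 TPM with DMSO.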
